A study of Mus musculus with 9 samples.

Results

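Bone marrow LSK cells that express a mutant Dnmt3a allele were compared with LSK cells that carry only the wild-type allele. The comparison takes 7 of the 9 libraries of the series: the 4 labelled cKI_Mx+, with the genotype Dnmt3a+/m, and the 3 labelled wt_Mx+, with the genotype Dnmt3a+/+. The remaining 2 libraries, from animals with the conditional allele and no Cre, were left out. All 7 libraries came from C57BL/6 mice aged 6 months that carried Mx1-Cre and had received 5 intraperitoneal injections of poly(I:C), so Cre and the inducer are common to both groups. The Mx1 promoter responds to interferon and is active in blood cells and in other tissues, and the share of cells that recombined the allele is not given in the sources used here. Each library was made from total RNA after removal of ribosomal RNA. The labels do not say whether a library is 1 animal or a pool; p-values therefore measure the spread between these libraries.

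LSK cells (Lin- Sca1+ cKit+) are the fraction of bone marrow in which blood stem cells and multipotent progenitors lie. Dnmt3a is one of the enzymes that place new methyl groups on cytosines in CpG pairs. It is among the genes most often mutated in clonal haematopoiesis and acute myeloid leukaemia, and the recurrent mutation named in the series title lies in its catalytic domain. Loss of promoter methylation is known to release some silenced genes, germline genes among them, whereas many CpG-rich promoters of widely expressed genes carry little methylation in any cell. The series title names DNA-damage sensing and resistance to anthracyclines, which are drugs that break DNA through topoisomerase.

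Gene counts per library ranged from 50198017 to 55206485. Y-linked transcripts were present in 4 libraries, 2 of each group, and at background in the other 3. Of those 3, mutant_829 also had almost no Xist (2.18 CPM of its unscaled total, against 1643 in mutant_830). The first principal component of log2 expression (34.4% of the variance) put the 4 libraries with Y-linked transcripts on one side and the other 3 on the other. The second (19.7%) put the 3 wild-type libraries between -29.9 and -18.5 and the 4 mutant libraries between 9.49 and 33.0. The wild-type libraries differed among themselves in several results, and the range of values with each of the 7 libraries left out in turn is given beside many of the results that 1 library moved. Below, CPM are counts per 1000000 of the TMM-scaled library size, and per-library values keep the same order of libraries within each group throughout.

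Dnmt3a itself did not differ detectably in level. The gene (ENSMUSG00000020661, protein-coding, chromosome 12, 3806007 to 3914443 of GRCm38, plus strand) stood at 175, 147 and 159 CPM in wild type and at 161, 160.2, 174 and 156 CPM in the mutant. The groups overlapped, and the log2 fold change of mutant over wild type was 0.023 (95% interval -0.16 to 0.20, adjusted p = 0.957 in edgeR). Counts per gene do not tell the mutant transcript from the wild-type one, so they check neither the genotype nor the recombination. The genes that define the sort were abundant in every library: Kit, the stem cell factor receptor, ranged from 365 to 545 CPM, Ly6a, which encodes Sca1, from 33.2 to 44.0, and Cd34 from 1065 to 1482. None of these 3 separated the groups, with log2 fold changes of -0.056, -0.18 and -0.11. Cd48, found on progenitors and absent from most stem cells, stood at 122, 256 and 155 CPM in wild type and at 118, 128, 110.2 and 113 CPM in the mutant. Its highest value belonged to a wild-type library, and the groups overlapped.

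Low p-values belonged mainly to genes of low to moderate level with higher mutant means. Among the 14 of them named below are genes of the matrix, of meiosis and of glutathione breakdown. The 14 lower genes named below lay closer to wild type and include antiviral, chaperone and adhesion genes. No gene passed the test: edgeR's quasi-likelihood fit called 0 of 17708 genes at an adjusted p under 0.05 (0.0% called), with a smallest adjusted p of 0.0885. At an unadjusted p under 0.05 there were 1268 genes (7.16%), 783 with higher (4.42%) and 485 with lower (2.74%) mutant means. DESeq2 called 123 of 17442 genes (0.705%), 100 higher (0.573%) and 23 lower. limma-voom with library quality weights called 20 (0.113%), of which 16 were higher (0.0904%). edgeR with a covariate for Y-linked transcripts called 26 (0.147%), and without a filter on low counts 25 of 27266 (0.0917%), of which 21 were higher (0.077%). All 4 mutant libraries lay above all 3 wild-type libraries in 4.68% of the genes tested and below them in 3.6%.

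Named here are the 14 genes on each side with the lowest p among protein-coding genes with a mean of at least 1 CPM. They were picked by that p, so their separation is a description. DESeq2 called all 14 of the higher genes and 13 of the 14 lower ones, Prkdc being the exception (0.0733). The fit with the Y covariate called 13 and 2, and limma-voom 7 and 2. In every sentence on these genes the adjusted p is over all genes, from edgeR on 7 libraries unless DESeq2 is named.

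Several of the 14 higher genes encode proteins of the cell surface and its junctions, secreted proteins or proteins that act on the matrix. Mmp14, a membrane-bound metalloproteinase that cleaves collagen and activates other proteases, stood at 11.3, 9.32 and 13 CPM in wild type and at 20.8, 20.7, 21.6 and 24.4 CPM in the mutant. Each mutant library was above each wild-type library, by 0.96 on the log2 scale between the groups (SE 0.13, adjusted p = 0.0885; DESeq2 2.43e-09). Serpinh1, a chaperone of the endoplasmic reticulum that folds collagen, stood at 3.20, 2.11 and 4.17 CPM in wild type and at 10.5, 7.56, 10.9 and 9.83 CPM in the mutant. Its log2 fold change was 1.62 (SE 0.23, adjusted p = 0.0885; DESeq2 1.14e-09), and the lowest mutant value was well above the highest of wild type. Angptl2, a secreted angiopoietin-like protein, averaged 14.3 ± 1.5 CPM (SD, n = 4) in the mutant against 7.85 ± 0.85 CPM (SD, n = 3) in wild type. Cdcp1, a transmembrane protein phosphorylated by Src kinases, averaged 42.7 ± 2 CPM (SD, n = 4) in the mutant against 27.2 ± 3 CPM (SD, n = 3) in wild type. Cldn4, a claudin of epithelial tight junctions, was nearly silent in wild type: it stood at 0.169, 0.516 and 0.422 CPM in wild type and at 3.56, 2.14, 2.19 and 1.71 CPM in the mutant, a log2 fold change of 2.69 (SE 0.41, adjusted p = 0.0898). Vcam1, an adhesion molecule of stroma, macrophages and some stem cells, has a place in 3 of the gene lists and was outside the 14. It stood at 15.1, 9.32 and 10.5 CPM in wild type and at 18.3, 22.7, 26.4 and 27.8 CPM in the mutant (1.03, SE 0.19, adjusted p = 0.211; DESeq2 5.41e-05).

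Psma8 and Hormad2 of the 14 are genes of meiosis. Psma8, which encodes an alpha subunit of the proteasome of the testis, stood at 11.6, 12.9 and 13.1 CPM in wild type and at 21.6, 23.9, 25.3 and 19.4 CPM in the mutant. Hormad2, a protein of the meiotic chromosome axis, stood at 1.69, 3.02 and 2.84 CPM in wild type and at 5.61, 6.74, 7.63 and 9.60 CPM in the mutant. In both genes the mutant libraries lay above all of wild type, with log2 fold changes of 0.85 (SE 0.11, adjusted p = 0.0885) and 1.55 (SE 0.25, adjusted p = 0.112). Ggt1, the surface enzyme that starts the breakdown of extracellular glutathione, stood at 1.43, 0.894 and 1.44 CPM in wild type and at 5.05, 3.19, 6.19 and 4.91 CPM in the mutant. Its log2 fold change was 1.94 (SE 0.28, adjusted p = 0.0885; DESeq2 1.22e-09).

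Signalling and cytoskeletal genes made up another 3. Rapgefl1, related to the exchange factors that load Rap proteins with GTP, had the lowest p of all genes and stood at 1.52, 1.63 and 1.69 CPM in wild type and at 5.41, 4.91, 3.87 and 4.69 CPM in the mutant. The spread within each group was small beside the gap, with a log2 fold change of 1.55 (SE 0.18, adjusted p = 0.0885; DESeq2 3.67e-11). Eps8l2, of a family that links receptors to actin, averaged 6.19 ± 1.2 CPM (SD, n = 4) in the mutant against 2.47 ± 0.11 CPM (SD, n = 3) in wild type. Schip1, a partner of the tumour suppressor schwannomin, averaged 3.89 ± 0.68 CPM (SD, n = 4) in the mutant against 1.40 ± 0.32 CPM (SD, n = 3) in wild type. The last 3 act on chromatin or RNA or are thought to. Skida1, which has a SKI/DACH domain, stood at 0.301, 0.199 and 0.365 CPM in wild type and at 1.37, 1.49, 2.18 and 2.23 CPM in the mutant, a log2 fold change of 2.64 (SE 0.33, adjusted p = 0.0885). Pcbp4, an RNA-binding protein, averaged 12.4 ± 3.2 CPM (SD, n = 4) in the mutant against 3.91 ± 1.2 CPM (SD, n = 3) in wild type. Nxf7, an X-linked member of the RNA export factor family, averaged 1.61 ± 0.25 CPM (SD, n = 4) in the mutant against 0.507 ± 0.053 CPM (SD, n = 3) in wild type. Its mutant range of 1.40 to 1.97 CPM holds libraries with and without Y-linked transcripts.

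**Figure D1:**
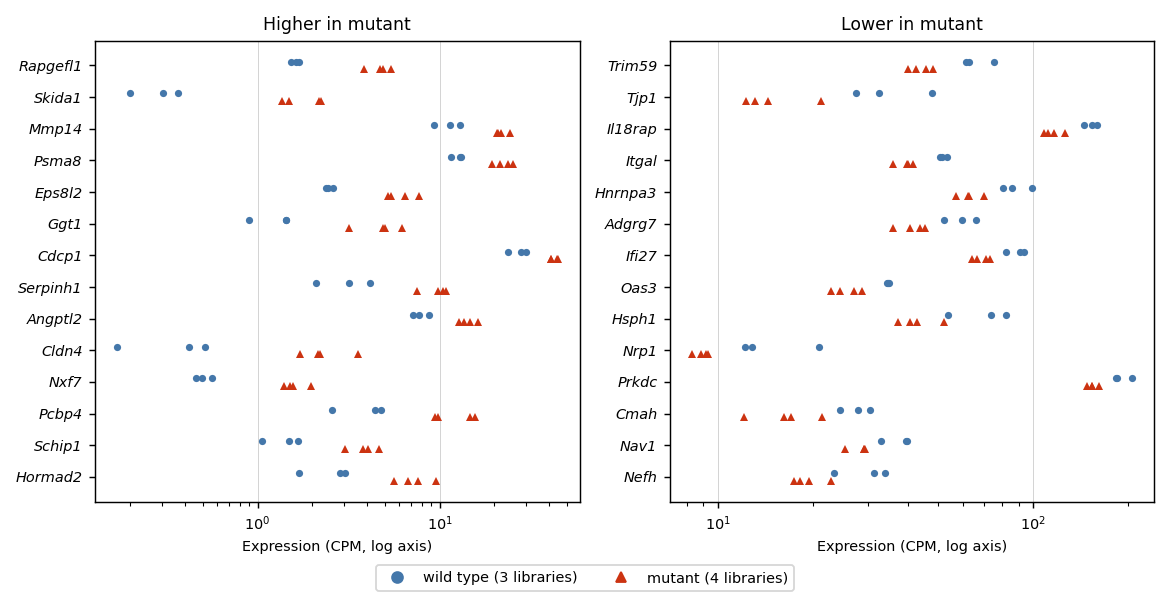
Expression in CPM (log axis) of the 14 genes with higher and the 14 with lower mutant means that had the lowest p, with 1 point for each wild-type library (circles, 3) and mutant library (triangles, 4). The groups are apart in each gene because the genes were picked by p; the gap is widest for Skida1 and Cldn4, and that of Hsph1 and Nefh is narrow.

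The 14 lower genes had higher levels and smaller differences. Trim59, a tripartite-motif ubiquitin ligase, stood at 75.2, 61.3 and 62.5 CPM in wild type and at 40.1, 48.0, 45.9 and 42.7 CPM in the mutant. Its log2 fold change was -0.59 (SE 0.10, adjusted p = 0.142; DESeq2 0.000177). Tjp1, a scaffold that ties tight junction proteins to actin, had the largest of these differences. It stood at 32.5, 47.8 and 27.5 CPM in wild type and at 14.4, 13.1, 12.3 and 21.2 CPM in the mutant, a log2 fold change of -1.24 (SE 0.22, adjusted p = 0.185; DESeq2 1.93e-05). Tjp1 was lower in the mutant whereas the claudin gene Cldn4 was higher. Of 27 junction and polarity genes tested, 19 had positive values, with a median of 0.089 (0.07 to 0.19 with a library left out).

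Surface receptors followed. Itgal, the alpha chain of the leukocyte integrin that binds ICAM proteins, stood at 50.8, 51.5 and 53.5 CPM in wild type and at 39.8, 41.7, 36.0 and 40.0 CPM in the mutant (-0.40, SE 0.08, adjusted p = 0.231). Il18rap, the accessory chain of the interleukin-18 receptor, averaged 116 ± 7.8 CPM (SD, n = 4) in the mutant against 153 ± 7 CPM (SD, n = 3) in wild type. Nrp1, a co-receptor for semaphorins and vascular growth factor, stood at 12.9, 20.9 and 12.2 CPM in wild type and at 8.82, 9.17, 8.29 and 9.33 CPM in the mutant. Its highest value, in 1 wild-type library, was far above the other 6 libraries. Its log2 fold change was -0.78, and from -0.92 to -0.48 with a library left out. Adgrg7, an adhesion G protein-coupled receptor, averaged 41.5 ± 4.2 CPM (SD, n = 4) in the mutant against 59.2 ± 6.9 CPM (SD, n = 3) in wild type. Of the rest, Hnrnpa3 encodes a nuclear RNA-binding protein, Cmah an enzyme of sialic acid synthesis, Nav1 a microtubule-binding protein and Nefh a neurofilament chain. Their log2 fold changes were -0.48, -0.72, -0.41 and -0.60. Ifi27, Oas3, Hsph1 and Prkdc complete the 14 and are described with their gene groups.

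The 2 directions differed in expression level. Among the 3877 genes with a mean of 1 to 10 CPM, 280 had higher and 52 lower mutant means at an unadjusted p under 0.05. Among the 2610 genes at 100 CPM and above, 26 were higher and 162 lower. The median log2 fold change was 0.057 in the first class and -0.062 in the second, against -0.0052 over all genes. With 1 wild-type library left out the high class had a median of up to 0.013, with 25 higher and 150 lower in that fit, where the class of 1 to 10 CPM had 220 and 111. Over all levels, 61.8% of the genes at an unadjusted p under 0.05 were higher in the mutant. That share was from 47.7% to 76.8% with a library left out, 53.1% with the Y covariate, 51.6% with a filter of 1 CPM in 3 libraries and 74.1% with upper-quartile scaling. The lowest share came without a wild-type library and the highest without mutant_824. The balance of the directions therefore moved with the scaling, the filter and single libraries. Upper-quartile scaling moved the median of all genes from -0.0052 to 0.015.

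**Figure D2:**
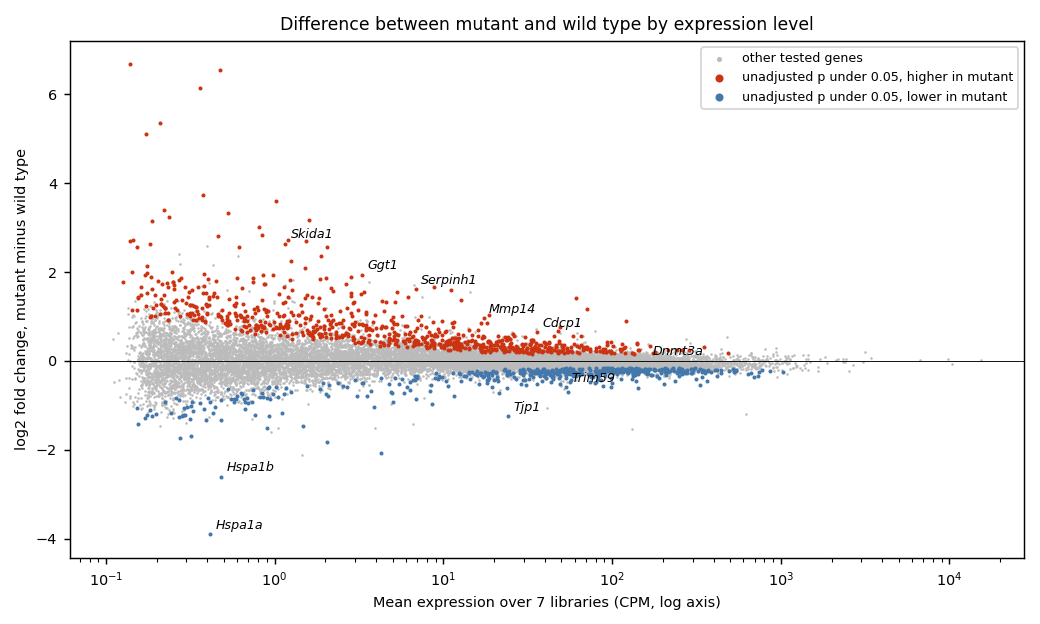
log2 fold change of mutant over wild type against mean expression (CPM, log axis) for the 17708 genes tested; red and blue points have an unadjusted p under 0.05. Higher genes crowd the low and middle levels and lower genes the high levels; Dnmt3a lies at 0.02 and Hspa1a at -3.90.

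Promoters are shown because Dnmt3a acts on CpG pairs; no methylation was measured in these libraries. RefSeq (GRCm38.p6) gave the 250 bases before the first listed start for 11578 of the genes tested, 11 of the 14 higher and 10 of the 14 lower genes. In the sequences that follow, capitals mark CpG pairs in the first 4, the motif match in the last 2. Rapgefl1 (chr11:98836535-98836784, plus strand), Mmp14 (chr14:54431348-54431597, plus strand) and Cldn4 (chr5:134946935-134947184, minus strand) are from the higher genes and Trim59 (chr3:69044743-69044992, minus strand) from the lower ones.
Rapgefl1: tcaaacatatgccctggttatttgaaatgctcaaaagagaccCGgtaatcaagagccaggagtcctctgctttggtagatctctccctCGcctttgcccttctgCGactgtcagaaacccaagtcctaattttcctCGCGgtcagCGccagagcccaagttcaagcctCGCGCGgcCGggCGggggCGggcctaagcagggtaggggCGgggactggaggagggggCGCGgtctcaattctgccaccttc
Mmp14: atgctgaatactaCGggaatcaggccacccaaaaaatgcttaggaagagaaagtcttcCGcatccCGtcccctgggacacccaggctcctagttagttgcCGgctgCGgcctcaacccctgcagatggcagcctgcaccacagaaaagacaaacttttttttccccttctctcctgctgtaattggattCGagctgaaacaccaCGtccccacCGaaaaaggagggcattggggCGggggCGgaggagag
Cldn4: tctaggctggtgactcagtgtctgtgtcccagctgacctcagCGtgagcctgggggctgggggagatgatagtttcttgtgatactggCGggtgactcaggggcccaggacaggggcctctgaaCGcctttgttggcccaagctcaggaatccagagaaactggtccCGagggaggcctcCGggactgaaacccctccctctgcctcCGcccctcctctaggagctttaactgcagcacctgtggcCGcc
Trim59: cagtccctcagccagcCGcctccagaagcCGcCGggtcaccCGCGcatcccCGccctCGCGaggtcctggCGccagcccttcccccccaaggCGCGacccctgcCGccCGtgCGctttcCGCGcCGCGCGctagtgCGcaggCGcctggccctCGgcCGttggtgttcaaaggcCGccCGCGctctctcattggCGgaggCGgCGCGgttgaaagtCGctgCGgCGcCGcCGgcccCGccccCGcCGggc
Oas3 (chr5:120777660-120777909, minus strand) is an interferon-stimulated gene with a match to GAAA, any 2 bases and a further GAAA, a core that interferon regulatory factors bind. Tex14 (chr11:87404815-87405064, plus strand) is a germline gene with a match on the opposite strand to GCGGGAA, a core of E2F sites.
Oas3: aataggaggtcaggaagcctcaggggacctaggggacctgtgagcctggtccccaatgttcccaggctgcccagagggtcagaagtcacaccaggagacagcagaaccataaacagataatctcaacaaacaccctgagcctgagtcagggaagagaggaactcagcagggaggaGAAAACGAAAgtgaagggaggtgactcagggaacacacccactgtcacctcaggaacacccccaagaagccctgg
Tex14: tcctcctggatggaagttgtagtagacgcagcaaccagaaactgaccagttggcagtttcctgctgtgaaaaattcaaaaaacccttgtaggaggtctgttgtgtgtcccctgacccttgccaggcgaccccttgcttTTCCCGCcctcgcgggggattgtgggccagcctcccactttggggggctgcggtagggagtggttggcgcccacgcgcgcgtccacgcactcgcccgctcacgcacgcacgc
The windows held 15, 10 and 7 CpG pairs in the 3 higher genes and 38 in Trim59. Over all lower genes with a promoter the number ran from 1 in Adgrg7 to 40 in Hnrnpa3. Over the higher ones it ran from 2 in Ggt1 to 15 in Rapgefl1. The match lay 75 bases before the start in Oas3 and 112 in Tex14.

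The CpG ratio is the number of CpG pairs divided by the number that the C and G content would give. It was 0.694 for Rapgefl1, 0.527 for Mmp14, 0.291 for Cldn4 and 1.04 for Trim59. Over the 11 higher genes with a promoter the median was 0.412, with 1 of them (Rapgefl1) above 0.6. Over the 10 lower genes it was 0.593, with 5 above 0.6. All genes tested had a median of 0.701, with 62.4% above 0.6. Genes of 1 to 10 CPM had 0.560 and 45.7%, a class that holds many of the higher genes. Genes of 10 to 100 CPM, a class that holds most of the lower genes, had 0.747 and 71.5%. Over all genes with a promoter, 7.56% of those with a ratio under 0.48 had a higher mutant mean at an unadjusted p under 0.05. The share was 2.86% at 0.75 and above. Between genes of 10 to 100 CPM it was 7.57% and 2.30%. At 1 to 10 CPM the shares lay closer, at 9.27% and 7.43%. For genes with lower mutant means the shares were 3.26% and 3.17% at 10 to 100 CPM. At 100 CPM and above they were 5.70% and 7.12%. These shares are descriptions, with no test of their differences.

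**Figure D3:**
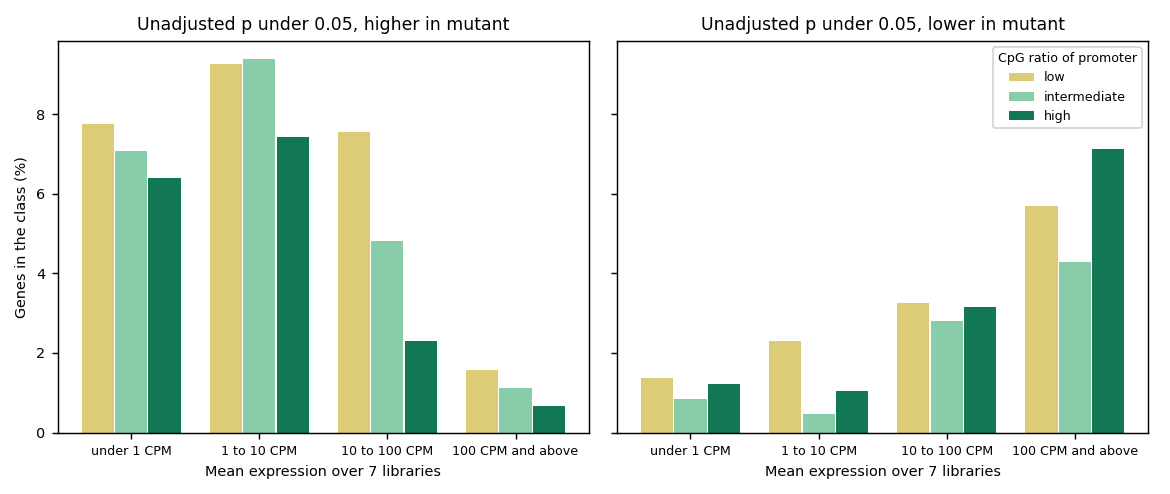
Percent of genes at an unadjusted p under 0.05 with higher (left) and lower (right) mutant means, by mean expression and by the CpG ratio of the 250 bases before the start (low under 0.48, high 0.75 and above). At 10 to 100 CPM the higher share is 7.57% for low and 2.30% for high ratios.

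Interferon-stimulated genes, the antiviral programme that type I interferon and poly(I:C) switch on, had lower mutant means in the main. Of 52 members tested, 46 had negative values and 6 positive ones, against 9069 and 8639 of all 17708 genes. Their median log2 fold change was -0.17. At an unadjusted p under 0.05 there were 16 lower members and 0 higher, against 2.74% and 4.42% of all genes. In 12 members every mutant library was below every wild-type library, against 3.6% of all genes. No member passed the adjusted test in edgeR on 7 libraries. DESeq2 called Oas3 (0.0171), Ifi27 (0.0216), Mx1 (0.0290) and Oas2 (0.0403), where 0.132% of all genes were called lower. With the Y covariate, edgeR called 2 members, both lower, against 0.0226% of all genes. These were Oas2 and Mx1, with log2 fold changes of -1.14 and -0.99 in that fit. Oas3, a synthase of the signal that activates RNase L, stood at 34.7, 34.3 and 34.9 CPM in wild type and at 28.7, 24.4, 22.9 and 27.0 CPM in the mutant (-0.43, SE 0.09, adjusted p = 0.321). Ifi27, a membrane protein induced by interferon, stood at 82.2, 93.3 and 90.8 CPM in wild type and at 73.2, 66.4, 64.2 and 71.1 CPM in the mutant (-0.37, SE 0.08, adjusted p = 0.321). The kinase gene Eif2ak2, which senses double-stranded RNA, stood at 147, 165 and 146 CPM in wild type and at 122, 121, 125 and 130.4 CPM in the mutant. Among the GTPases of the IRG and GBP families, which interferon gamma induces most, 7 of 13 were positive, with a median of 0.0064.

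The interferon-stimulated median ranged from -0.20 to -0.13 with each library left out. The mean deviation of the list from the 7-library mean was 0.066 to 0.19 in wild type and -0.14 to 0.0033 in the mutant. Summed levels were 3863 to 4088 CPM and 3520 to 3775 CPM, which do not overlap. The GAAA repeat, searched on both strands, was present in 36.8% of the 38 promoters of the list, in 88.9% of the 9 of the GTPases and in 2.72% of all. These matches are descriptions of the windows.

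Heat shock chaperones, which refold damaged proteins, had lower mutant means in 22 of 24 tested members, with a median of -0.20. Hspa1a and Hspa1b encode the inducible form of the major chaperone and are nearly the same in sequence. Reads that fit both equally may be among those left out as not unique, so counts may understate the levels of both genes. Their raw counts were small: Hspa1a had 34, 35 and 69 counts in wild type and 6, 1, 0 and 5 in the mutant, and Hspa1b 39, 43 and 62 against 3, 9, 11 and 9. Every mutant library was below every wild-type library in both, with log2 fold changes of -3.90 (SE 0.68, adjusted p = 0.168) and -2.61 (SE 0.40, adjusted p = 0.0900). DESeq2 called both, at 1.42e-05 and 4.02e-05. Hsph1, which recharges these chaperones with ATP, stood at 82.3, 73.5 and 53.7 CPM in wild type and at 37.4, 40.7, 52.0 and 42.8 CPM in the mutant (-0.69, SE 0.15, adjusted p = 0.333). The small heat shock gene Cryab went the other way, at 0.226, 0.477 and 0.422 CPM in wild type and at 2.01, 0.943, 1.12 and 0.911 CPM in the mutant. With a library left out the median of the list ranged from -0.29 to -0.066.

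Genes of DNA damage sensing and checkpoints, the subject of the series title, had negative values in 42 of 48 members, with a median of -0.13. At an unadjusted p under 0.05 there were 8 lower members and 0 higher, against 2.74% and 4.42% of all genes. All mutant libraries lay below all of wild type in 8 members, against 3.6% of all genes. Of the 2610 genes at 100 CPM and above, 214 lay wholly below wild type and 162 were lower at an unadjusted p under 0.05. The part of expression level in the values of this list was not tested. Prkdc, the catalytic subunit of the DNA-dependent protein kinase that acts in end joining, stood at 183, 207 and 184 CPM in wild type and at 154, 153, 163 and 148 CPM in the mutant (-0.31, SE 0.07, adjusted p = 0.375). Atm, the kinase that signals double-strand breaks, stood at 280.2, 282 and 255 CPM in wild type and at 238, 238, 245 and 237 CPM in the mutant. Both had all mutant libraries below wild type, and the log2 fold change of Atm was -0.19. By library, however, the list as a whole did not separate the groups: its mean deviation was -0.056, 0.20 and 0.046 in wild type and -0.066 to -0.041 in the mutant. With a library left out the median ranged from -0.19 to -0.031, both ends being fits without 1 wild-type library.

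Proliferation genes differed widely between the wild-type libraries. S phase genes had negative values in 46 of 50 members (median -0.13) and genes of G2 and mitosis in 51 of 55 (-0.11). The S phase list lay at -0.30, 0.36 and 0.12 in the wild-type libraries, and at -0.11 to 0.065 in the mutant. Its median ranged from -0.30 to 0.04 with a library left out, both ends being fits without 1 wild-type library. That of G2 and mitosis ranged from -0.21 to 0.062. The part of proliferation in the values of the DNA damage list was not tested. p53 target genes had 22 positive and 16 negative members (median 0.037), and anthracycline targets, efflux and reduction genes 13 and 14 (median -0.0051).

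Chromatin regulators were mostly on the lower side by small amounts. Of 48 Polycomb and trithorax genes 36 were negative (median -0.10), with Ezh2, the histone methyltransferase of Polycomb, at 149, 167 and 145 CPM in wild type and at 127, 141, 132 and 134 CPM in the mutant. Of 38 histone chaperones and remodellers 30 were negative (median -0.12). Smarcc1, a core subunit of the BAF remodeller, stood at 277, 276 and 263 CPM in wild type and at 232, 229, 235 and 221 CPM in the mutant. Many members of both lists are abundant, and the class at 100 CPM and above had a median of -0.062. The part of expression level in the values of these lists was not tested. By library, the mean deviation of the remodellers was -0.0092 to 0.13 in wild type and -0.062 to -0.012 in the mutant. That of the Polycomb list overlapped, at -0.045 to 0.14 and -0.052 to -0.0049. With a library left out the medians ranged from -0.13 to -0.019 for the Polycomb list and from -0.12 to -0.028 for the remodellers. DNA methyltransferases, TET enzymes and methyl-CpG readers divided 11 to 14 (median -0.035). Tet1, which oxidises methylcytosine, stood at 145, 94.4 and 103 CPM in wild type and at 82.0, 91.3, 90.3 and 86.8 CPM in the mutant. All mutant libraries lay below wild type, by a small gap.

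Germline genes, many of them silenced by promoter methylation outside the gonads, had higher mutant means in 19 of 26 tested members, with a median of 0.31. Of the list's 49 genes, 1 symbol had no match and 22 were too low to test, and 5 of those were at 0 in every library. A gene with reads in the mutant alone enters the 26 through that group, so their counts, median and mean deviation are descriptions. Psma8 and Hormad2, picked above by their p, are members. At an unadjusted p under 0.05 there were 7 higher and 0 lower, against 4.42% and 2.74% of all genes. Tex14, which stabilises the bridges between germ cells, stood at 1.54, 0.775 and 1.02 CPM in wild type and at 3.98, 3.72, 6.31 and 2.44 CPM in the mutant (1.88, SE 0.36, adjusted p = 0.211; DESeq2 1.16e-05). Dmc1, the meiotic recombinase, stood at 2.13, 3.12 and 2.53 CPM in wild type and at 3.82, 4.93, 6.01 and 4.25 CPM in the mutant. Rec8, the meiotic cohesin, stood at 30.0, 20.4 and 28.0 CPM in wild type and at 31.6, 32.9, 33.5 and 38.4 CPM in the mutant, with overlap between the groups. The mean deviation over the same 26 members separated the groups, at -0.20 to -0.16 in wild type and 0.068 to 0.21 in the mutant. The median of the list ranged from 0.23 to 0.36 with each library left out. GCGGGAA, searched likewise, was present in 6 of 19 promoters (31.6%, against 6.69% of all) and CACGTG, the E-box that MAX proteins bind, also in 6 (31.6%, against 8.09%). Imprinted genes, whose methylation is set in the germ line, had a median of 0.15 with 17 of 25 positive. It ranged from 0.045 to 0.26 with a library left out.

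Glutathione genes separated the groups by their mean deviation as well, and not by their summed level, which was 1306 to 1469 CPM in wild type and 1371 to 1516 CPM in the mutant. Of 36 members, 27 were positive, with a median of 0.15. At an unadjusted p under 0.05, 7 were higher and 1 lower, against 4.42% and 2.74% of all genes. Gsr, the reductase that regenerates glutathione, stood at 98.4, 103 and 109 CPM in wild type and at 134, 135, 116 and 125 CPM in the mutant (0.30, SE 0.08, adjusted p = 0.415). The transferase gene Gstm7 stood at 7.21, 5.72 and 5.86 CPM in wild type and at 9.27, 11.4, 8.16 and 8.47 CPM in the mutant. Members of the Gstm cluster are similar in sequence, and reads that fit several of them may be among those left out as not unique. Gclm, a subunit of the enzyme that makes the first precursor, was the lower member (-0.25). The list lay at -0.18 to -0.049 in wild type and 0.068 to 0.10 in the mutant.

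**Figure D4:**
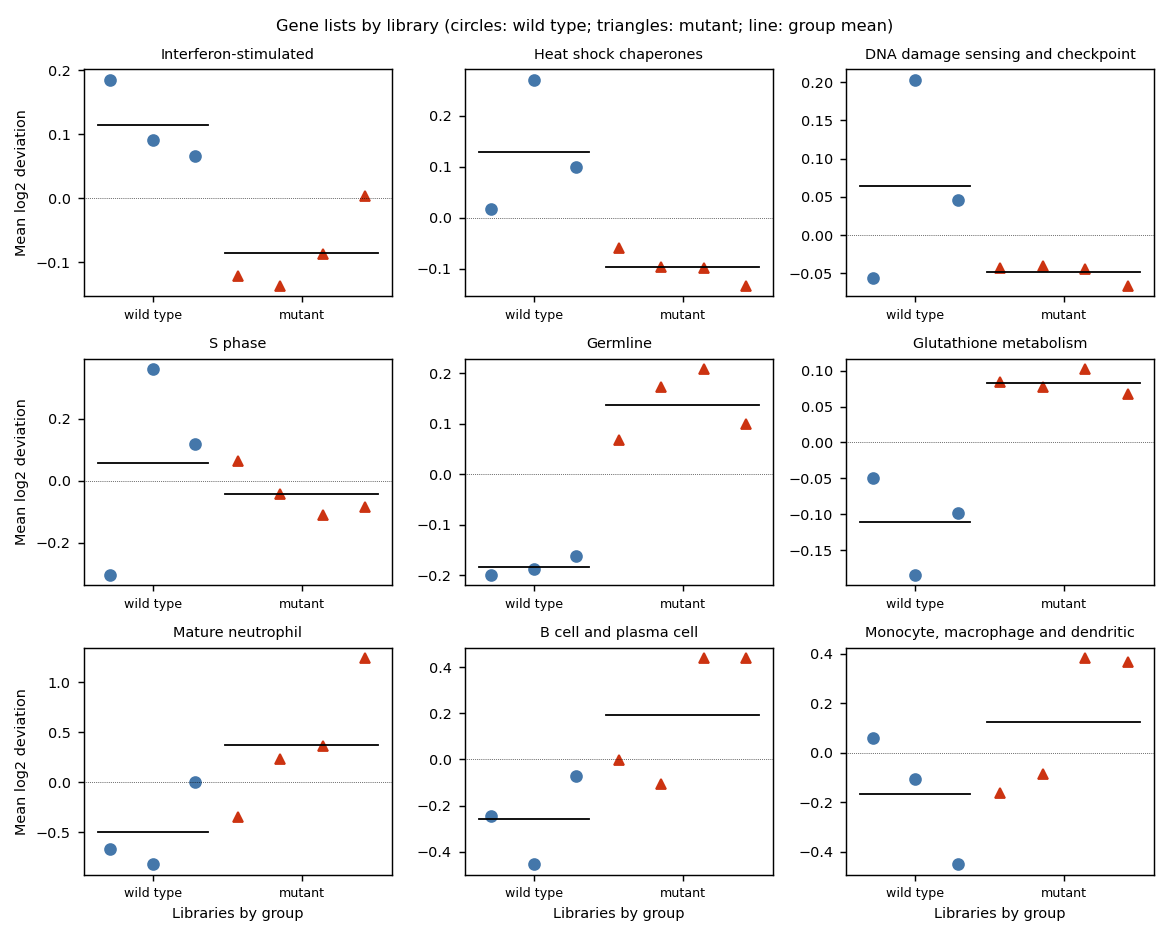
Mean deviation of log2 expression from the 7-library mean for 9 gene lists in each library (circles, wild type; triangles, mutant; lines, group means). Interferon-stimulated, heat shock, germline and glutathione genes separate the groups, whereas S phase and DNA damage genes differ widely within wild type and the mature cell lists overlap. The germline values are over members that passed the filter in these libraries and are descriptions.

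Markers of mature neutrophils, B cells and monocytes, which the lineage depletion and sort should remove, had higher medians in the mutant and were uneven between libraries. In bulk RNA, more cells of a type and more RNA per cell cannot be told apart. Mature neutrophil markers were positive in 18 of 19 members (median 1.34). In 3 of them all mutant libraries lay above all of wild type, against 4.68% of all genes. The summed level of the list was 176 to 350.2 CPM in wild type and 327 to 682 in the mutant. Some members were near the floor: Retnlg averaged 0.284 CPM and Fpr1 0.154 CPM in wild type. No marker of the mature cell lists was at 0 in all libraries. S100a9, an abundant calcium-binding protein of neutrophils, stood at 19.2, 15.7 and 59.0 CPM in wild type and at 48.8, 81.2, 56.6 and 148 CPM in the mutant, with overlap. The list lay at 1.24 in mutant_830 and at -0.35 in mutant_824, and without mutant_830 its median was 0.74. B cell and plasma cell markers were positive in 25 of 29 (median 0.62, summed level 846 to 911 and 885 to 1016 CPM). The signalling chain Cd79a of the B cell receptor stood at 1.02, 0.656 and 0.922 CPM in wild type and at 1.15, 1.29, 2.30 and 2.38 CPM in the mutant. In that list mutant_829 and mutant_830 were the high libraries. In the 4 libraries with Y-linked transcripts alone the B cell median was 0.14 and the neutrophil median 0.48.

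Monocyte, macrophage and dendritic cell markers were positive in 14 of 20 (median 0.40, 0.20 to 0.60 with a library left out, summed level 505 to 572 and 540.3 to 609 CPM), and Vcam1 is one of them. Stromal and endothelial markers, which share Vcam1, had 9 positive and 7 negative members (median 0.037, -0.018 to 0.13 with a library left out), with summed levels of 392 to 411 and 388 to 427 CPM. Among them Col1a2, a chain of type I collagen chosen after its values were seen, stood at 5.72, 1.23 and 2.38 CPM in wild type and at 9.51, 5.40, 8.09 and 11.1 CPM in the mutant (1.45, unadjusted p = 0.00927, adjusted p = 0.562 in edgeR). Whether stromal or mature cells contribute to the matrix and surface genes named above was not tested. Megakaryocyte genes were positive in 24 of 27 (median 0.17, 0.11 to 0.28 with a library left out) and erythroid genes in 13 of 31 (median -0.039, -0.27 to 0.35 with a library left out). Elane, the elastase of early granulocyte precursors, stood at 54.5, 12.8 and 61.4 CPM in wild type and at 74.5, 76.5, 74.7 and 77.8 CPM in the mutant. Its log2 fold change was 0.82, and from 0.40 to 1.17 with a library left out.

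Stem cell and leukaemia genes had small median differences. Long-term stem cell genes were positive in 17 of 26 (median 0.11, and -0.013 without mutant_830). The Meis1, Mn1 and Hox genes that leukaemias with mutant DNMT3A often express were positive in 18 of 23 (median 0.10, 0.08 to 0.24 with a library left out). Of the 23, 3 were higher at an unadjusted p under 0.05, against 4.42% of all genes. Hoxb2, an anterior homeobox gene, stood at 0.734, 0.477 and 0.422 CPM in wild type and at 0.864, 0.870, 1.58 and 1.43 CPM in the mutant (1.12, SE 0.34, adjusted p = 0.560). Prdm16, a regulator of stem cell maintenance, averaged 24.2 ± 1.4 CPM (SD, n = 4) in the mutant against 17.8 ± 4.3 CPM (SD, n = 3) in wild type. Meis1, the homeobox cofactor of the Hox proteins, stood at 411, 363 and 380.3 CPM in wild type and at 424, 425, 417 and 426 CPM in the mutant, a log2 fold change of 0.14 (SE 0.08, adjusted p = 0.752). Immediate early genes were positive in 16 of 22 (median 0.21), and their mean deviation ran from -0.41 to 0.47 among the mutant libraries alone. The 34 tested genes that start within 5.0 Mb of Dnmt3a were evenly divided, 16 positive and 18 negative, with a median of -0.0073.

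Of the remaining lists, MHC genes were positive in 22 of 26 members (median 0.11, 0.035 to 0.21 with a library left out), and Ras and Rap exchange factors and their GTPase activators in 22 of 30 (0.097), Rapgefl1 being the highest of them. Lymphoid-primed progenitor genes were positive in 11 of 17 (0.094, and -0.00154 to 0.25 with a library left out), granulocyte-monocyte progenitor genes in 11 of 16 (0.088, and 0.05 to 0.15) and T and NK cell markers in 15 of 22 (0.11, and -0.013 to 0.34). Inflammatory genes of the NF-kappaB pathway were positive in 19 of 28 (0.057), MAPK feedback genes in 13 of 22 (0.052) and glycolysis and hypoxia genes in 23 of 40 (0.034). The Bcl2 family divided 9 to 9, cytokine receptors 16 to 19 (-0.0053), and homing receptors and integrins 19 to 21 (-0.0086). Proteasome genes were negative in 34 of 39 (-0.096, -0.21 to 0.046 with a library left out), G1 cyclins and their partners in 15 of 20 (-0.059, and -0.13 to 0.012) and mast cell and basophil markers in 8 of 13 (-0.084, and -0.23 to 0.06). The 10 genes that define LSK and stem cell gates had a median of -0.059. Most list medians near 0 moved, and some turned sign, when a single library was left out.

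**Figure D5:**
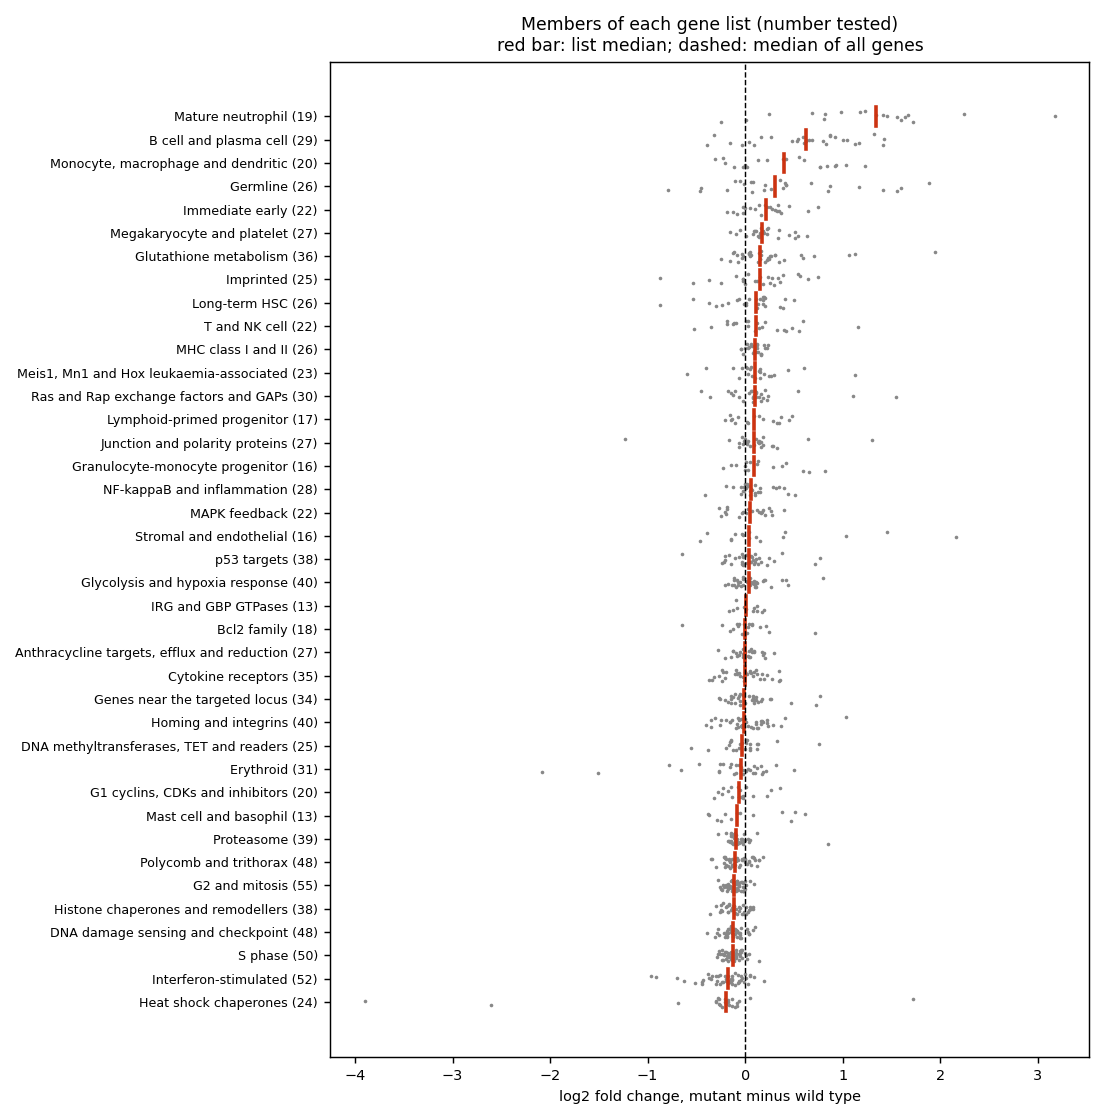
log2 fold change of each tested member (grey points) of 39 gene lists, ordered by list median (red bars), with the number tested in brackets; the dashed line is the median of all genes. Neutrophil, B cell and monocyte markers lie farthest to the right and heat shock and interferon-stimulated genes farthest to the left.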

How the data were processed

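RNA-seq counts of 7 libraries were analysed. The authors deposited raw counts per Ensembl gene, which are neither scaled nor filtered. The submitters' processing notes name STAR, HTSeq 0.5.3p3 and DESeq2 and the builds mm10 and GRCm38. Annotation release and strand setting of the counting were not given there, and antisense and overlapping genes are uncertain. Per the labels' protocols, the kit was stranded and ribosomal RNA was removed. The deposited table holds 5 rows that name no gene, which took 40.5% to 45.5% of each library's reads and were left out, chiefly reads that were not unique (21.6% to 26.4%) or in no feature (13.6% to 23.1%). GENCODE M21 gave symbols and positions for 37693 of 39179 genes.

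Genes were filtered with filterByExpr and tested two-sided with edgeR 4.0.16 in R 4.3.3 (TMM, glmQLFit, glmQLFTest, Benjamini-Hochberg threshold 0.05). The SE is the absolute log2 fold change over the square root of F. DESeq2 1.42.0, limma 3.58.1 with quality weights, other scalings, filters and covariates, and the omission of each library were alternatives. The named genes were the 14 lowest p in each direction among protein-coding genes of at least 1 CPM off the Y chromosome, since fewer than 10 passed the threshold, plus list members and genes needed to describe a result. The comparison and the 40 gene lists were chosen with earlier results of these data known. The model was tested on simulated counts. Counts of replicates differed by more than sampling noise in every pair. With 50198017 counts or more per library before scaling, 1 CPM is about 50 counts or more. Some results for single genes and libraries are not reported here.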

Additional observations from a re-analysis of the deposited data

Results flagged for a closer look

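Among 134 values tested for 1 mutant library lying far from the other 3, 5 were flagged. That is a smaller share than the 1 in 20 that chance gives, so the 5 are descriptions. Nav1, a microtubule-binding protein, was at 25.4 CPM in mutant_824 and from 29.0 to 29.3 CPM in the other mutant libraries. Atm was at 245 CPM in mutant_829 and from 237 to 238 CPM in the others. The erythroid list had a mean log2 deviation of 0.39 in mutant_829, against -0.17 to -0.087 in the other mutant libraries. The MAPK feedback list lay at -0.090 in mutant_829 and from 0.044 to 0.069 in the others. The DNA damage list lay at -0.066 in mutant_830 and from -0.044 to -0.041 in the others. In Atm and in the DNA damage list the distance is small beside the spread of the wild-type libraries.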

How the results depend on the processing

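At an adjusted p under 0.05 edgeR called 0 genes, also with RLE or upper-quartile scaling, with a filter of 1 CPM in 3 libraries, with Y-linked or with histone and small RNA genes removed, and with all 9 libraries. Calls came to 123 in DESeq2, 26 with the Y covariate, 20 in limma-voom and 25 without a filter, and 17 at a threshold of 0.10. Leaving out 1 library gave 0 to 1. Of the 28 named genes these fits called 27, 15, 9, 16 and 12. Chosen after seeing the data, the 4 libraries with Y-linked transcripts gave 48 calls (13 of the 28), and the 3 without them 2060 (28 of 28), where the lone wild-type library is assumed to vary like the mutant ones. Genes whose groups did not overlap numbered 1074 to 1993 higher and 669 to 1752 lower with 1 library left out, since fewer libraries have to separate. The sign of Dnmt3a turned to -0.095 in the libraries without Y-linked transcripts and ranged from -0.027 to 0.092 with 1 left out (-0.012 without mutant_829). Kit turned to 0.18 in the libraries with Y-linked transcripts and ranged from -0.19 to 0.074 with 1 left out, Ly6a to 0.063 in those without Y-linked transcripts and Cd34 from -0.21 to 0.00087 with 1 left out. The median near Dnmt3a was -0.10 in the libraries without Y-linked transcripts and from -0.051 to 0.061 with 1 left out. For these values the cause was not tested. Over 92 genes, 1570 of 1740 alternative values kept direction and side of the threshold, 166 passed it and 4 turned sign. As no gene passed in the main fit, a value was counted as kept if it held its sign and failed again. Many of the genes were picked by p, so these counts are descriptions. Of 759 list medians 707 moved by less than the spread between libraries. The number of lists with a positive median, 23, ranged from 21 to 28. No paired analysis was possible because the groups share no library number. Depth limits genes under 1 CPM, which rest on few counts.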

Other observations

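Immunoglobulin variable genes had a positive median, as the B cell markers did. Of 105 such genes tested, 17 had higher and 2 lower mutant means at an unadjusted p under 0.05, against 4.42% and 2.74% of all genes, with a median log2 fold change of 0.45. A variable gene with reads in the mutant alone enters the 105 through that group, so their counts and median are descriptions. Ighv14-1, for example, averaged 0 CPM in wild type and 0.24 CPM in the mutant. Variable genes are similar to one another, and reads that fit several of them may be among those left out as not unique. Processed pseudogenes had a median of -0.11 over 1091 tested, and snoRNA genes had a median of -0.12 over 235.

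DESeq2, limma-voom and edgeR with the Y covariate all called 11 of the same genes: Angptl2, Art1, Cdcp1, Mmp14, Nxf7, Rapgefl1, Rps4l, Serpinh1, Skida1, Trim59 and Vcam1. Trim59 was lower in the mutant and the other 10 were higher.

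Median log2 deviation of 634 X-linked genes ranged from -0.031 in mutant_829 to 0.011 in a wild-type library.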
